A study of Mus musculus with 2 samples.

Results

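The 10 genes Lpl, Apoe, Apod, Pparg, Fabp4, Cebpa, Cebpb, Plin2, Cd36 and Dlk1 were chosen by name as genes of lipid handling and of the preadipocyte state, and all 10 were present among the 27998 genes of the single-cell tables. They were measured in single-cell RNA sequencing of ear skin from ICR mice aged 7~8 weeks. One library was made from the ears of healthy control mice and 1 from ears with allergic contact dermatitis (ACD), the skin inflammation that follows a second contact with a reactive chemical. ACD was produced with the hapten 2,4-dinitrofluorobenzene (DNFB), given at 1.0% on the back for sensitization and at 0.2% on the ears on day 6, and the ears were taken 60 hr later. No number of mice per library was found in the labels or methods, so each group was 1 sample, no test between the groups was possible, and every interval given here is a 95% interval of counting error only.

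Fat cells arise from fibroblast-like precursors, called preadipocytes, under the control of C/EBPβ, C/EBPα and PPARγ, the transcription factors encoded by Cebpb, Cebpa and Pparg. Precursors carry DLK1, a membrane protein that restrains differentiation and is lost as the cells mature. Lipoprotein lipase, encoded by Lpl, frees fatty acids from circulating lipoproteins, CD36 takes them into the cell, FABP4 carries them inside it and perilipin 2, encoded by Plin2, coats the droplets in which they are stored. Apolipoproteins E and D, encoded by Apoe and Apod, are secreted lipid carriers. In skin, preadipocytes belong to the dermal fibroblasts (dFBs), and FABP4 and CD36 are also known from capillary endothelium and CD36 from macrophages.

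The control library held 12895 barcodes and 99037698 UMIs (unique molecular identifiers, which count RNA molecules), and the ACD library 13163 barcodes and 126566870 UMIs. The cell filter kept 12213 control and 11665 ACD cells, with medians of 6850 and 7447 UMIs. Clusters were named from marker genes, and each name carries "-like" because it rests on markers alone. Of 36 clusters, 9 stayed unnamed, and they held 21.2% of control and 16.5% of ACD cells. A level is the number of UMIs of a gene per 1000000 UMIs of a cell class. A gene was counted in a class when it had at least 50 UMIs over both libraries, and a difference was called when the levels differed 2-fold or more. Since UMIs are counted at the 3′ end and gene lengths were not corrected for, levels were compared between libraries and classes and not between genes.

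By the GENCODE M21 annotation of mouse build GRCm38, all 10 are protein-coding genes on 9 chromosomes. Lpl lies at chr8:68880491-68907448 on the forward strand with 10 exons, Apoe at chr7:19696109-19699188 and Apod at chr16:31296192-31314808, both on the reverse strand. Pparg covers chr6:115360951-115490399 and Dlk1 chr12:109452823-109463336 on the forward strand, Fabp4 chr3:10204088-10208576 and Cd36 chr5:17781690-17888801 on the reverse strand. Cebpa at chr7:35119293-35121928 and Cebpb at chr2:167688915-167690418 are short forward-strand genes, and Plin2 lies at chr4:86648386-86670060 on the reverse strand.

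The promoters of Apoe, Apod, Plin2 and Dlk1 are shown because these 4 genes gave the clearest differences in dFB-like cells. RefSeq promoter entries of build GRCm38.p6 were found for 8 of the 10 genes. Each sequence is the 250 bases before a transcription start, written 5′ to 3′ on the strand of the gene, with matches to the searched motifs in capitals.
Apoe, chr7:19699189-19699438, reverse strand: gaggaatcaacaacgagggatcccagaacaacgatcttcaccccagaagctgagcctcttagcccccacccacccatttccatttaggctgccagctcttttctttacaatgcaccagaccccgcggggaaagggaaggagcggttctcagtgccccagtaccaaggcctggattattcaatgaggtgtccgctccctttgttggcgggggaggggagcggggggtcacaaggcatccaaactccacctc
Apod, chr16:31314809-31315058, reverse strand: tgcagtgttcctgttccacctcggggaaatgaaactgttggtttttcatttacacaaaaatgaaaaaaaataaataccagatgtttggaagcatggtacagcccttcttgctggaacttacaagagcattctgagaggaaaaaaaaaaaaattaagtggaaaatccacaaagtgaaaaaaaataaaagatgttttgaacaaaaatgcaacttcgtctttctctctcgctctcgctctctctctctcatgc
Plin2, chr4:86670060-86670309, reverse strand: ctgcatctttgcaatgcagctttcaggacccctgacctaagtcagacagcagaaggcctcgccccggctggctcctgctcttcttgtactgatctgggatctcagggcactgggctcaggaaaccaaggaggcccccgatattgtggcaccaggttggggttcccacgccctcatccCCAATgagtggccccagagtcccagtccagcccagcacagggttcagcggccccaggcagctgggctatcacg
Dlk1, chr12:109452573-109452822, forward strand: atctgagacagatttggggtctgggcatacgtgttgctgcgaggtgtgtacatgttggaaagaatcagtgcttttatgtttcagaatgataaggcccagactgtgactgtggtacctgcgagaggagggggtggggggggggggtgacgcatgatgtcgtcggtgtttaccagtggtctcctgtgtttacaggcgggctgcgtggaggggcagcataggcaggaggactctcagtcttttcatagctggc

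Both strands were searched for the TATA box TATAAA, the CCAAT box CCAAT, the C/EBP motif TTGCNNAA, the GC box GGGCGG and the DR1 motif AGGTCANAGGTCA of PPARγ. The search found 1 match in these windows, the CCAAT box 73 bases before the start of Plin2. Of the 3 RefSeq entries for Apoe, the one shown begins at the annotated gene start, and an entry whose start lies 567 bases further into the gene held a TATA box on each strand, 2 matches that overlap each other. Of 32851 promoters, 33.9% held a CCAAT box, 12.4% a TATA box, 9.56% the C/EBP motif, 32.7% a GC box and 0.0335% DR1. The Apod and Dlk1 windows, from genes whose levels moved in opposite directions in dFB-like cells, were alike in holding none of these motifs.

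The 10 genes were spread over different cells of the ear. Lpl had most of its UMIs in dFB-like cells, 80.2% in control and 72.3% in ACD. Dlk1 had 63.3% of its control UMIs in dFB-like cells but 37.0% of its ACD UMIs there. Apoe was held mainly by chondrocyte-like cells, the cells of the ear cartilage, at 58.4% and 67.2%. Pparg likewise had most of its UMIs in that class, 73.5% in control and 72.8% in ACD, with 7.66% and 5.71% in dFB-like cells. By level neither gene was particular to cartilage. Control levels of Pparg were 39.6 (37.4 to 42.0) in chondrocyte-like, 32.4 (23.2 to 44.1) in endothelial-like and 32.0 (25.4 to 39.8) in keratinocyte-like cells. In ACD these levels of Pparg were 37.1, 37.4 and 25.5. Apoe levels in chondrocyte-like and keratinocyte-like cells were 10569 and 10319 in control and 7523 and 8778 in ACD. Fabp4 had 38.0% of its control and 55.0% of its ACD UMIs in endothelial-like cells. Cd36 was the scarcest member, with 70 UMIs in the control and 52 in the ACD library. These shares depend on the number of cells of each class recovered, and dFB-like cells made up 24.9% of control and 9.85% of ACD cells.

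**Figure D1:**
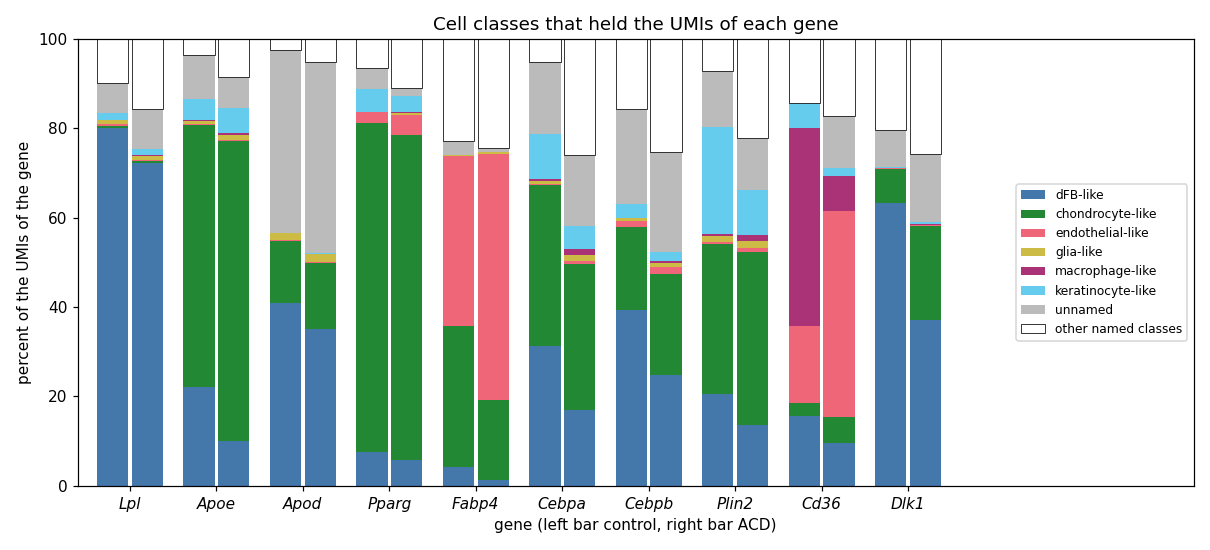
Percent of all UMIs of each gene (vertical axis) held by each cell class (colours), with the control library in the left and the ACD library in the right bar of each pair. Lpl and Dlk1 lie mainly in dFB-like cells in control skin, Pparg and Apoe in chondrocyte-like cells and Fabp4 in endothelial-like cells, and the macrophage-like part of Cd36 is 44.3% in control and 7.69% in ACD.

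The first comparison asked how the genes differed in dFB-like cells, 3046 in the control and 1149 in the ACD library. All 8 dFB markers, among them Pdgfra and Col1a1, were detected in both. Dlk1 and Apoe were lower in ACD, Apod and Plin2 were somewhat higher without reaching 2-fold, and Lpl and the 3 adipogenic transcription factors lay close to the control level. In counts, 2 of the 9 members with at least 50 UMIs were 2-fold or more lower and 0 were higher, beside 4.76% of 11835 genes past 2-fold in either direction of which 1.17% lay on the lower and 3.59% on the higher side. The median log2 ratio of ACD over control was 0.06 for the members and -0.04 for all genes.

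Lpl stood at 331 UMIs per 1000000 (324 to 338) in control and 324 (315 to 333) in ACD dFB-like cells, a log2 ratio of -0.03 (-0.09 to 0.02). The Lpl transcript was thus at the same level within counting error in the class as a whole. Under 13 alternatives of the processing its ratio ran from -0.37 to 0.09, and 8 of them lay within this interval. Cd36 had 11 and 5 UMIs in the class and was too scarce to compare. Fabp4 had 108 and 52 UMIs, of which 45.4% and 23.1% came from 2 cells, and its log2 ratio of -0.19 (-0.70 to 0.30) gave no difference beyond counting error.

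The secreted lipid carriers went in opposite directions. Apoe was at 4575 UMIs per 1000000 (4549 to 4601) in control and 2065 (2041 to 2089) in ACD, 2.22-fold lower, with a log2 ratio of -1.15 (-1.17 to -1.13). Apod was at 1988 (1971 to 2005) in control and 2959 (2931 to 2987) in ACD, and the log2 ratio was 0.57 (0.56 to 0.59), which is 1.49-fold. In order of log2 ratio from the lowest, Apoe held rank 92 of 11835 genes, and Apod rank 1018 from the highest.

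Among the transcription factors, Cebpb was at 1521 UMIs per 1000000 in control and 1590 in ACD, with a log2 ratio of 0.06 (0.04 to 0.09). Cebpa was at 30.1 and 33.0, with a ratio of 0.14 (-0.03 to 0.30), and Pparg at 4.71 and 5.33, with a ratio of 0.18 (-0.25 to 0.61) from 122 and 76 UMIs. None of the 3 differed by as much as 2-fold, and the intervals of Cebpa and Pparg included no change. Plin2, the droplet coat protein, was at 35.9 (33.6 to 38.2) in control and 53.5 (49.8 to 57.5) in ACD, and the log2 ratio was 0.58 (0.44 to 0.72).

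Dlk1 gave the largest difference of the members in dFB-like cells. Control cells had 207 UMIs per 1000000 (202 to 213) and ACD cells 53.9 (50.2 to 57.9), 3.85-fold lower, and the log2 ratio was -1.94 (-2.05 to -1.83). From the lowest ratio up, it held rank 19 of the 11835 genes counted. The difference was spread over many cells, since the 2 cells richest in Dlk1 gave 4.85% of its control and 12.7% of its ACD UMIs.

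**Figure D2:**
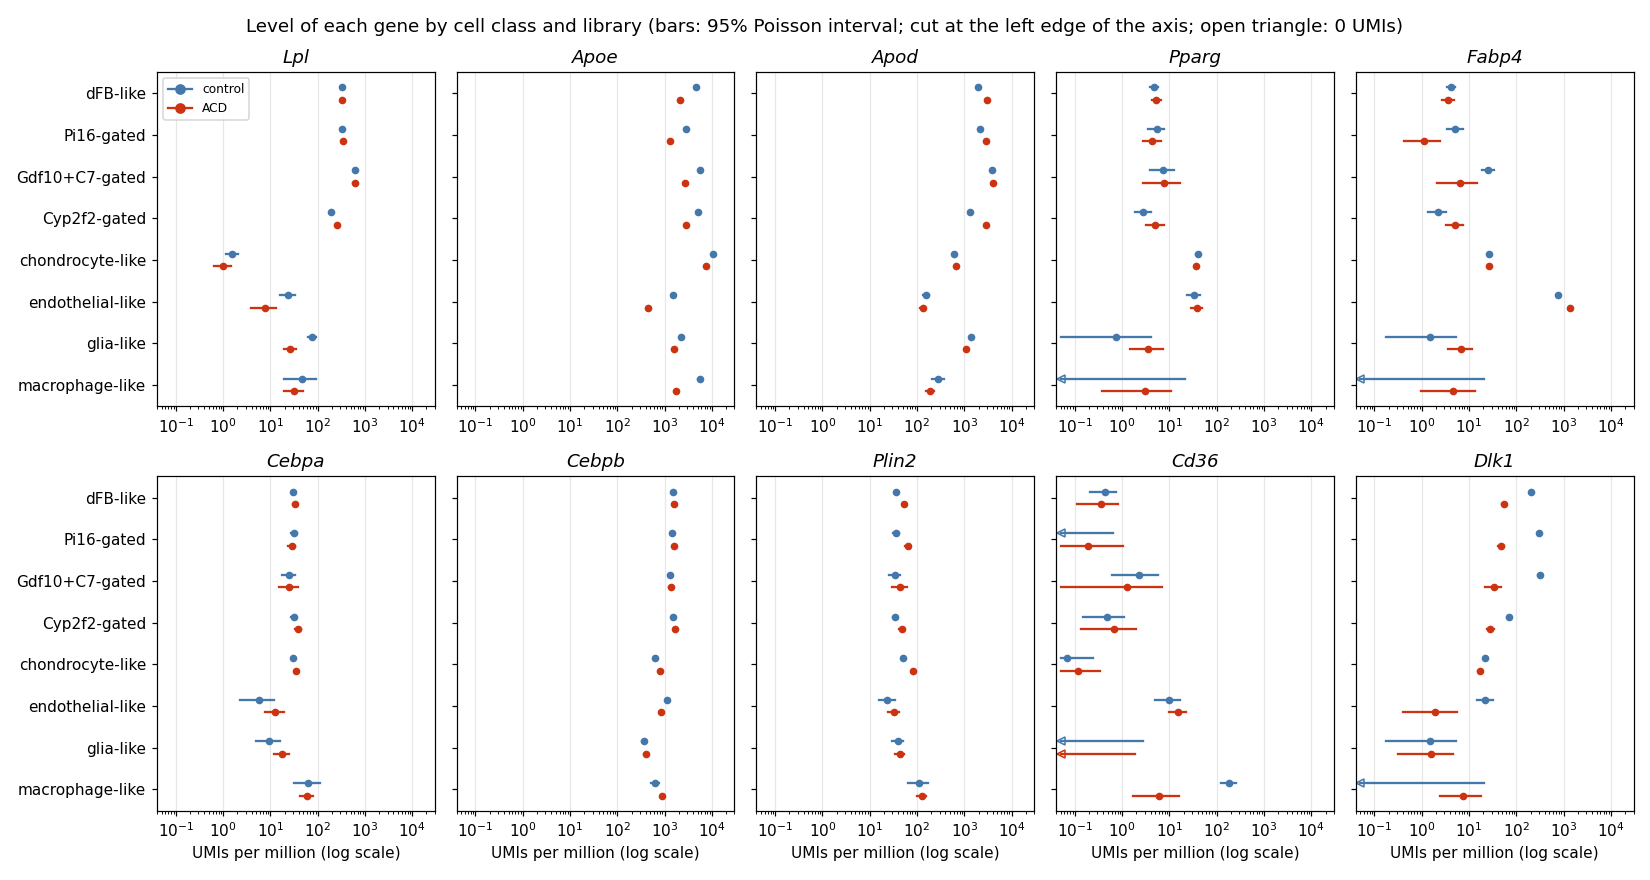
UMIs per 1000000 of each gene (horizontal axis, log scale) in each cell class (rows), with control in blue and ACD in red, points for the level and bars for the 95% Poisson interval, and open triangles where no UMI was found. Dlk1 and Apoe are lower in ACD in dFB-like cells and all 3 gated subtypes, while Lpl stands at 331 and 324 in dFB-like cells as a whole.

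Depth and free RNA moved alongside these differences. The median UMI count of dFB-like cells was 7814.5 in control and 11930 in ACD. When each cell was thinned to 2000 UMIs, 10.7% of control and 5.51% of ACD cells held Dlk1 (15.9% and 10.5% before thinning), 86.4% and 69.4% Apoe, 84.2% and 90.8% Apod, 5.81% and 9.44% Plin2 and 35.8% and 35.3% Lpl. Lymphocytes of the T/NK/ILC-like class, which should lack most of these genes, served as a measure of free RNA, leaving out 1 mixed cluster with a low marker fold. Their median depths were 3450 and 5207 UMIs. At the same thinning they held Apoe in 26.8% and 16.0% of cells, Dlk1 in 0.921% and 0.278% and Lpl in 0.395% and 0.154%. Fabp4 was found in 0.264% and 0.262% of dFB-like cells and in 0.263% and 0.247% of these lymphocytes, so in dFB-like cells it was read as background. Pparg, at 0.924% and 1.31% of dFB-like cells, lay above its lymphocyte shares of 0.263% and 0.278%.

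The lymphocyte levels themselves differed between the libraries. Apoe was at 265 UMIs per 1000000 in control and 139 in ACD T/NK/ILC-like cells, Dlk1 at 7.09 and 1.64, and Plin2 at 15.4 and 20.7. The lymphocyte levels of Apoe and Dlk1 were small beside those of dFB-like cells, so subtracting them could change these ratios only a little. With them subtracted, Apoe and Dlk1 in dFB-like cells differed by 2-fold or more on the lower side. Erythrocyte markers, counted as a sign of blood in the sample, summed to 783 UMIs per 1000000 in control and 83.8 in ACD dFB-like cells, and markers of mononuclear phagocytes to 26.7 and 240. Their part in the differences was not tested.

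The second comparison set the genes against the fibroblast subtypes. A dFB-like cell was assigned to the gate with the most UMIs among Pi16, a marker of adventitial progenitors, Gdf10 plus C7, used for preadipocytes, and Cyp2f2, used for reticular and papillary fibroblasts. The gates took 656 control and 424 ACD cells for Pi16, 233 and 79 for Gdf10 plus C7, and 1110 and 324 for Cyp2f2, while 1047 and 322 cells stayed ungated. Of the gated cells, 489 in control and 204 in ACD were ahead by a single UMI.

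Lpl was highest in the Gdf10+C7 gate in both libraries, at 610 UMIs per 1000000 (574 to 648) in control and 618 (565 to 675) in ACD. The Pi16 gate followed with 333 and 339, and the Cyp2f2 gate had 196 in control and 257 in ACD. The order of the 3 gates was the same in both libraries, and neighbouring gates did not overlap in their intervals. The Cyp2f2 gate alone had an interval above 0, with a log2 ratio of 0.39 (0.29 to 0.50), whereas the ungated cells had 452 and 321 and a ratio of -0.49 (-0.59 to -0.40). The Cyp2f2 ratio kept its sign in 14 of 15 alternatives but was -0.15 with every cell thinned to 2000 UMIs.

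Apod had the same order in control, with 3797 UMIs per 1000000 in the Gdf10+C7 gate, 2191 in the Pi16 gate and 1331 in the Cyp2f2 gate. In ACD the gates lay at 4111, 2897 and 2869, so that the Pi16 and Cyp2f2 gates could no longer be told apart by their intervals. The ratio was correspondingly largest in the Cyp2f2 gate, at 1.11 (1.07 to 1.14) on the log2 scale or 2.16-fold higher, against 0.40 (0.37 to 0.44) and 0.11 (0.05 to 0.18) in the Pi16 and Gdf10+C7 gates. Apod was the 1 counted member past 2-fold on the higher side in any gate, and with every cell thinned to 2000 UMIs its ratio was 0.98.

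Apoe was lower in ACD in each gate. It was at 2763 and 1323 UMIs per 1000000 in the Pi16 gate, a log2 ratio of -1.06 (-1.10 to -1.02), and at 5692 and 2676 in the Gdf10+C7 gate, a ratio of -1.09 (-1.16 to -1.02). In the Cyp2f2 gate it was at 5065 and 2798, with a ratio of -0.86 (-0.88 to -0.83), short of 2-fold. Where a gate had to lead by at least 2 UMIs, the ratios in the Pi16 and Gdf10+C7 gates were -0.87 and -0.91, no longer past 2-fold.

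Dlk1 was lower in ACD in all 3 gates and in ungated cells. The Pi16 gate had 298 UMIs per 1000000 in control and 47.4 in ACD, a log2 ratio of -2.65 (-2.85 to -2.46) or 6.28-fold lower, and held rank 5 of 9729 genes from the lowest ratio. The Gdf10+C7 gate had 318 and 32.9, a ratio of -3.27 (-3.90 to -2.71) or 9.67-fold lower, from 561 and 26 UMIs, with 73.1% of the ACD UMIs in 2 cells. In the Cyp2f2 gate Dlk1 was at 69.6 and 28.3, a ratio of -1.30 (-1.58 to -1.03), which became -0.55 without cluster 14, a cluster that was nearly all ACD. Of the ACD UMIs of Dlk1, 2 cells gave 33.3% in the Pi16 gate and 38.0% in the Cyp2f2 gate. The gates thus differed more in control, where the Cyp2f2 gate was far below the other two, than in ACD, where the intervals of the Gdf10+C7 gate (21.5 to 48.2) and the Cyp2f2 gate (23.7 to 33.7) overlapped.

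Of the remaining members, Plin2 was at 36.1 and 63.0 UMIs per 1000000 in the Pi16 gate, with a log2 ratio of 0.80 (0.55 to 1.06), and at 33.8 and 47.5 in the Cyp2f2 gate, with 0.49 (0.24 to 0.74). In the Gdf10+C7 gate it was at 33.4 and 43.0, with a ratio of 0.36 whose interval held 0. Cebpb stayed between 1329 and 1631 in all 3 gates of both libraries. Cebpa had ratios of -0.16, 0.05 and 0.30 in the Pi16, Gdf10+C7 and Cyp2f2 gates, and only the last had an interval that left out 0 (0.02 to 0.57). Pparg was at 5.34 and 4.33 in the Pi16 gate and at 2.81 and 5.05 in the Cyp2f2 gate, from 23 to 30 UMIs per library, and both intervals held 0. Fabp4 in the Gdf10+C7 gate was at 25.5 and 6.32, a ratio of -2.01 (-3.70 to -0.68), but 88.9% of its 45 control UMIs came from 2 cells and at 2000 UMIs per cell the ratio was -0.04.

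In counts, 2 of 8 members were 2-fold or more lower in the Pi16 gate, where 4.08% of all genes were past 2-fold in either direction, 1.42% on the lower and 2.66% on the higher side. In the Gdf10+C7 gate it was 3 of 8, with 4.85% of genes past 2-fold, 2.93% on the lower and 1.92% on the higher side. In the Cyp2f2 gate 1 of 8 was higher and 1 lower, with 4.28% of genes past 2-fold, 2.70% higher and 1.58% lower. The median log2 ratio of the members was -0.07, 0.01 and 0.34 in the 3 gates, beside -0.08, -0.04 and -0.08 for all genes.

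**Figure D3:**
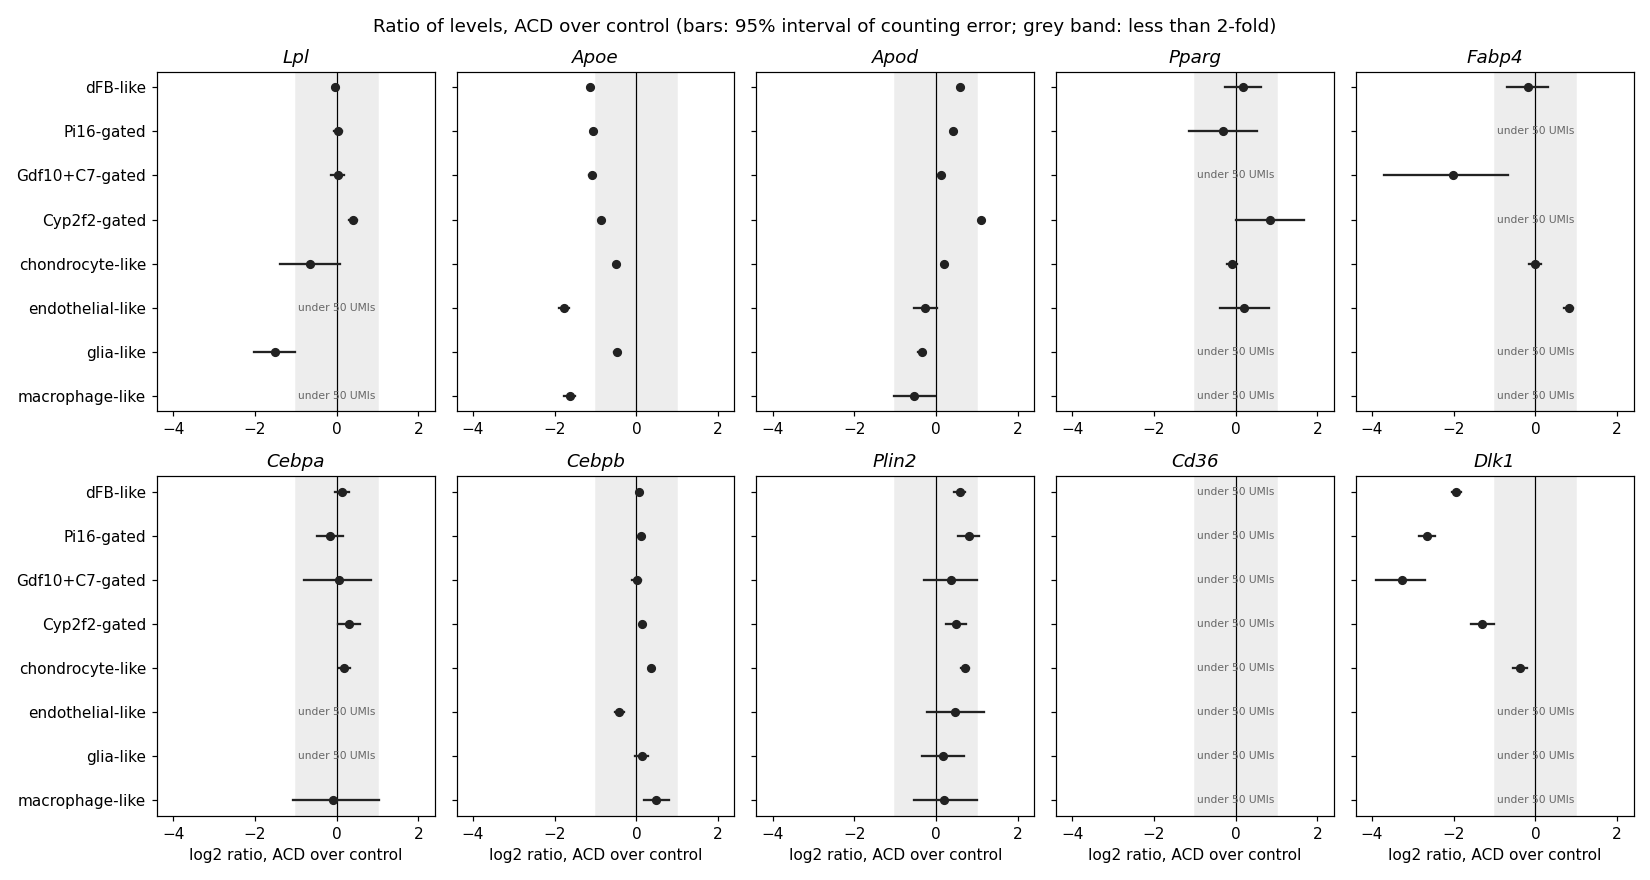
Log2 ratio of the level in ACD over control (horizontal axis) for each gene in 8 cell classes (rows) where it had at least 50 UMIs, with bars for the 95% interval of counting error and a grey band for differences under 2-fold. Points left of the band include Apoe in dFB-like, endothelial-like and macrophage-like cells and Dlk1 in dFB-like cells and all 3 gates, and the 1 plotted point right of it is Apod in the Cyp2f2 gate at 1.11.

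The dFB-like class did not have the same make-up in the libraries. It was built of cluster 3, led by Postn and Tnc, with 58.6% of control and 13.1% of ACD dFB-like cells, cluster 7, led by Sfrp4 and Mfap5, with 17.9% and 34.1%, cluster 9, led by Cyp2f2 and Rspo3, with 23.2% and 7.75%, and cluster 14, led by Saa3 and Cxcl9, with 0.263% and 45.0%. Cluster 14 held 8 control cells, so it gave no comparison of its own.

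Within clusters, Dlk1 was at 235 UMIs per 1000000 in control and 70.9 in ACD in cluster 3, at 441 and 61.2 in cluster 7 and at 16.3 and 0.896 in cluster 9, the last from 114 UMIs and 1 UMI. It was thus 2-fold or more lower in each of them. Apoe was lower in all 3, with log2 ratios of -0.83, -1.20 and -0.43, past 2-fold in cluster 7 only. Lpl was at 460 and 386 in cluster 3, at 365 and 423 in cluster 7 and at 40.8 and 34.1 in cluster 9.

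Apod did not go one way inside the class. It was higher in ACD in cluster 3, at 1768 and 2367, and in cluster 9, at 1128 and 1402, but lower in cluster 7, at 4328 and 3533, a log2 ratio of -0.29 (-0.32 to -0.26). Plin2 was higher in cluster 7, with a ratio of 0.55 (0.21 to 0.88), and in cluster 9, with 0.73 (0.21 to 1.21), and in cluster 3 it was at 42.9 and 46.2, within counting error.

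Cxcl9, a chemokine that draws T cells, had a UMI in 31.0% of ACD dFB-like cells and in 1.91% of the ACD lymphocytes that served as background, or in 17.7% and 0.927% at 2000 UMIs per cell. The 356 ACD cells with a Cxcl9 UMI were set beside the 793 without one, both from the same library and at median depths of 14449 and 10551 UMIs. Apod was at 3321 UMIs per 1000000 in cells with Cxcl9 and 2749 in cells without, a log2 ratio of 0.27 (0.25 to 0.30). Dlk1 was at 60.3 and 50.3, a ratio of 0.26 (0.05 to 0.47), and Pparg at 7.08 and 4.32, a ratio of 0.71 (0.02 to 1.40) from 37 and 39 UMIs. Lpl, at 321 and 325, Plin2, at 56.1 and 52.0, and Apoe, at 1995 and 2105, differed by little. Both groups of ACD cells were far below the control dFB-like level of Dlk1 and Apoe.

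The third comparison concerned the cartilage. Chondrocyte-like cells numbered 3715 in control and 2776 in ACD, and 10 of 10 measured chondrocyte markers were found in both. Here 0 of 9 counted members were past 2-fold, beside 1.99% of 12326 genes (1.54% higher and 0.446% lower), and the median log2 ratio was -0.01 for the members and -0.04 for all genes. Pparg was at 39.6 UMIs per 1000000 (37.4 to 42.0) in control and 37.1 (34.8 to 39.6) in ACD, well above its dFB-like levels of 4.71 and 5.33, and Fabp4 at 26.9 and 26.8. Apoe was at 10569 and 7523, a ratio of -0.49 (-0.50 to -0.48), and Dlk1 at 21.9 and 16.8, a ratio of -0.38 (-0.56 to -0.20). The Apoe ratio kept its sign in 12 of 12 alternatives, but only 1 lay within its interval. It was -0.11 with each library clustered on its own.

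Plin2 and Cebpb had the highest ratios of the counted members in cartilage cells, and Apod and Cebpa, each with a ratio of 0.19, were also above 0 beyond counting error. The Apod ratio kept its sign in only 7 of 12 alternatives and was -1.21 with each library clustered on its own. The Cebpa ratio kept its sign in 11 of 12 and was -0.10 with every cell thinned to 2000 UMIs. Plin2 was at 51.2 (48.7 to 53.9) in control and 83.2 (79.7 to 86.8) in ACD, and the log2 ratio was 0.70 (0.60 to 0.80), which was rank 291 of 12326 genes from the highest. Markers of mononuclear phagocytes summed to 12.5 UMIs per 1000000 in control and 504 in ACD chondrocyte-like cells, and erythrocyte markers to 347 and 1638. Without the cells that held 3 or more markers of a second class the Plin2 ratio was 0.72. Cebpb was at 626 and 797, a ratio of 0.35 (0.32 to 0.38). Lpl had 46 and 26 UMIs in the whole class, the lowest level among the 8 classes described.

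Pparg, Fabp4 and Plin2 were highest in the same chondrocyte-like cluster. Cluster 0, whose leading genes include Acan, the cartilage proteoglycan, had Pparg at 61.2 and 62.9 UMIs per 1000000, Fabp4 at 50.2 and 54.4 and Plin2 at 80.2 and 132. In cluster 2 Pparg was at 29.9 and 27.0 and Fabp4 at 9.27 and 6.99, and in cluster 4 Pparg was at 10.4 and 7.20 and Fabp4 at 7.78 and 7.36. Dlk1 was level in cluster 0, at 30.9 and 31.0, and lower in cluster 2, at 17.0 and 7.54, a log2 ratio of -1.17 (-1.60 to -0.76). Fabp4 was carried by few cells, 28.2% of its control and 17.2% of its ACD chondrocyte-like UMIs coming from 2 cells.

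The fourth comparison concerned vessels. Endothelial-like cells numbered 168 in control and 137 in ACD, and all 8 endothelial markers were found in both libraries. Fabp4 was at 774 UMIs per 1000000 (726 to 825) in control and 1358 (1301 to 1417) in ACD, and the log2 ratio was 0.81 (0.70 to 0.92). Without the cells that held 3 or more markers of a second class it was 0.06, so the difference was not kept under this setting. Apoe was at 1537 and 452, a ratio of -1.77 (-1.89 to -1.64) or 3.40-fold lower. Of 6 counted members 1 was 2-fold or more lower and 0 were higher, beside 7.19% of 6218 genes past 2-fold, 3.31% on the lower and 3.88% on the higher side. Pparg was at 32.4 and 37.4 and Cebpb at 1143 and 855, the latter with a ratio of -0.42 (-0.53 to -0.31).

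The higher Fabp4 level did not hold within either kind of endothelial-like cell. Cells with 3 or more UMIs of lymphatic markers such as Prox1 and Lyve1 numbered 148 in control and 100 in ACD, and the other cells 20 and 37. Fabp4 was at 122 (102 to 144) and 36.7 (26.1 to 50.1) in the lymphatic cells, a log2 ratio of -1.73 (-2.28 to -1.21), and at 8311 (7750 to 8900) and 4097 (3924 to 4276) in the others, a ratio of -1.02 (-1.14 to -0.90). The cells outside the lymphatic gate gave 7.97% of endothelial-like UMIs in control and 32.5% in ACD. At 2000 UMIs per cell, 77.8% of them in control and 75.7% in ACD held Fabp4, and 42.4% of its control UMIs in these cells came from 2 cells. Among lymphatic cells 5.84% and 6.06% held it at that depth, and 2 cells gave 75.4% of its control and 41.0% of its ACD UMIs there, so the lower ACD levels did not appear in the shares of cells of either subset.

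**Figure D4:**
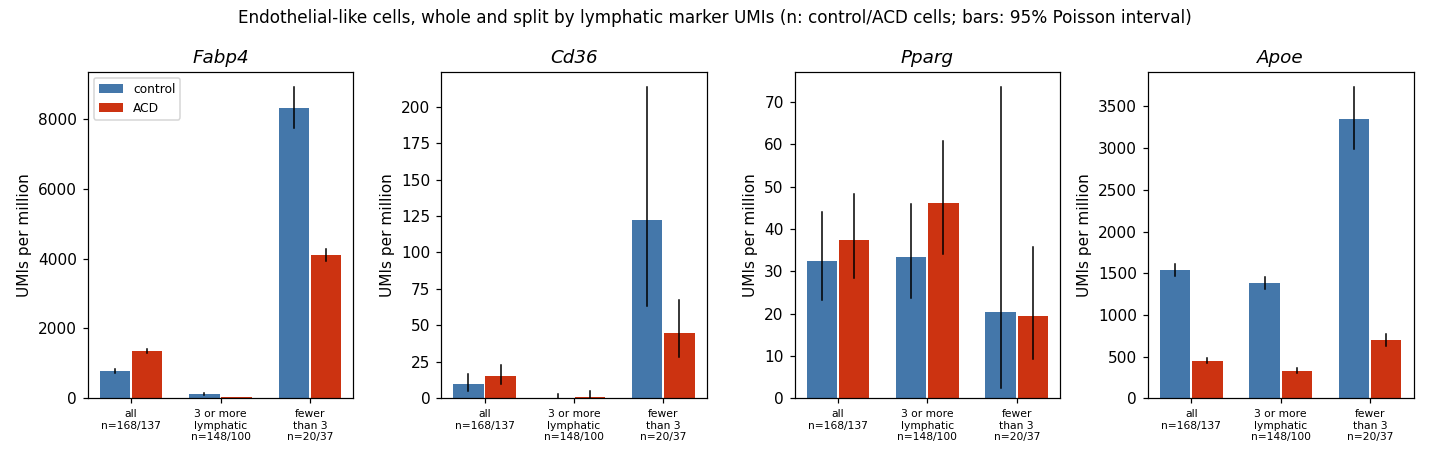
UMIs per 1000000 of Fabp4, Cd36, Pparg and Apoe (vertical axes, linear) in all endothelial-like cells and in those with 3 or more or fewer than 3 lymphatic marker UMIs, control in blue and ACD in red, with 95% Poisson intervals. Fabp4 is higher in ACD for all cells together, at 774 and 1358, and lower in both subsets, at 122 and 36.7 and at 8311 and 4097, although 2 cells gave 75.4% and 42.4% of the control UMIs of these subsets.

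Cd36 in endothelial-like cells was confined, in these libraries, almost to the cells outside the lymphatic gate, with 12 of 12 control and 23 of 24 ACD UMIs. Its level there was 122 (63.1 to 213) in control and 44.8 (28.4 to 67.3) in ACD. Pparg was found in both subsets, at 33.5 and 46.1 in lymphatic and 20.3 and 19.5 in other cells, within counting error between libraries. Apoe was lower in both, with ratios of -2.06 (-2.23 to -1.89) and -2.26 (-2.48 to -2.04). Markers of dFBs summed to 9693 UMIs per 1000000 in control and 2792 in ACD lymphatic cells, and erythrocyte markers to 86.3 and 7819, and their part in these values was not tested.

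The fifth comparison concerned nerve sheath cells. Glia-like cells numbered 355 in control and 368 in ACD, and 6 of 6 markers of myelinating Schwann cells were found in both. Lpl was at 75.4 UMIs per 1000000 (61.5 to 91.4) in control and 26.3 (19.6 to 34.5) in ACD, and the log2 ratio was -1.52 (-2.03 to -1.02) or 2.87-fold lower. It was the 1 of 5 counted members past 2-fold, beside 2.83% of 7141 genes in either direction, 0.658% lower and 2.17% higher. It rested on 103 and 51 UMIs, of which 49.5% and 52.9% came from 2 cells. Without the cells that held 3 or more markers of a second class the ratio was -0.24, and with classes taken from gates on marker UMIs it was -0.13, so the difference was not kept under these settings.

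Apod and Apoe had their higher glial levels in the non-myelinating glia-like cells, 74 in control and 89 in ACD. There Apod was at 4308 UMIs per 1000000 (4070 to 4556) in control and 2397 (2268 to 2532) in ACD, with a log2 ratio of -0.85, and Apoe at 5093 and 3516, a ratio of -0.53. In myelinating Schwann-like cells Apod was at 627 and 588 and Apoe at 1472 and 872. In the non-myelinating cells 2 cells gave 43.6% of the control UMIs of Apod and 20.7% of those of Apoe. At 2000 UMIs per cell 57.1% of control and 59.8% of ACD cells there held Apod, and 89.3% and 86.6% held Apoe, so the lower levels were not seen in the shares of cells. Plin2, at 38.8 and 43.3 in glia-like cells as a whole, and Cebpb, at 362 and 395, were within counting error, and Cd36 had 0 UMIs in either library, which allows up to 2.70 per 1000000 in control and 1.90 in ACD.

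The sixth comparison concerned macrophages. Macrophage-like cells, defined by a gate on resident macrophage markers among mononuclear phagocyte-like cells, numbered 28 in control and 89 in ACD. Apoe was at 5536 UMIs per 1000000 (5192 to 5897) in control and 1781 (1680 to 1886) in ACD, and the log2 ratio was -1.64 (-1.76 to -1.51) or 3.11-fold lower. It was the 1 of 5 counted members past 2-fold, beside 18.0% of 2467 genes in either direction, 8.31% lower and 9.69% higher, so such a difference was common in this class. Cebpb was at 637 and 895, a ratio of 0.49 (0.19 to 0.80), and Plin2 at 109 and 125, within counting error. The Cebpb ratio kept its sign in 11 of 12 alternatives but was -0.04 with every cell thinned to 2000 UMIs. At that depth 69.2% of control and 63.6% of ACD macrophage-like cells held Cebpb.

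Cd36, the fatty acid and oxidized lipid receptor, was at 178 UMIs per 1000000 (121 to 253) in control and 6.09 (1.66 to 15.6) in ACD macrophage-like cells, 29.2-fold lower. This rested on 31 and 4 UMIs, under the 50 required for a call, and 61.3% of the control UMIs came from 2 cells. At 2000 UMIs per cell 5 of 26 control cells, 19.2% (6.55 to 39.4), and 1 of 66 ACD cells, 1.52% (0.0384 to 8.16), held Cd36. These intervals overlapped, and 2 control and 23 ACD cells were too shallow to be thinned. In either library 0 of the lymphocytes held it. The macrophage markers used for the gate summed to 7695 in control and 1808 in ACD, so the cells past the gate differed in these markers as well. Pparg, Fabp4 and Dlk1 had 0 UMIs in control and 2, 3 and 5 in ACD macrophage-like cells.

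Across all classes, the direction of Apoe was the most widely shared. Taking the 13 named classes and 9 unnamed clusters with enough cells in both libraries, the interval of its log2 ratio lay below 0 in 20 of 22 groups and above 0 in 1, with 8 past 2-fold lower. Apoe had many UMIs, so its interval left out 0 at small ratios too, such as -0.23 (-0.26 to -0.20) in keratinocyte-like cells. Its background level in lymphocytes was also lower in ACD, and the part of this in the count was not tested. Dlk1 could be counted in 9 groups, with the interval below 0 in 8 and above 0 in 1, cluster 1, led by Angptl7, at 9.65 and 14.5. Plin2 had its interval above 0 in 7 of 16 groups and below 0 in 1, the keratinocyte-like cells, at 436 and 303. Apod was divided, with 9 groups above and 9 below 0 of 22, and Pparg had no interval that left out 0 in its 8 groups. These groups share their 2 libraries and their free RNA, and are not independent. No such count of groups was made for all genes, so these counts have no background to be read against.

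Some levels outside the 8 classes help to place the members. Lpl was higher in pericyte-like cells of the vessel wall, at 440 UMIs per 1000000 in control and 417 in ACD, than in dFB-like cells as a whole, at 331 and 324. Of the fibroblast gates only Gdf10+C7 was above them, at 610 and 618. Pericyte-like cells also held Dlk1 at 658 and 185, a log2 ratio of -1.83 (-2.07 to -1.60), where dFB-like cells had 207 and 53.9. Vascular smooth muscle-like cells had Dlk1 at 271 and 76.8 and Fabp4 at 126 and 242, the latter with a ratio of 0.94 (0.75 to 1.13). Apod was highest in cluster 27, an unnamed cluster led by Ccl11, at 38235 and 26586. Keratinocyte-like cells had Apod at 42.0 and 153, a ratio of 1.87 (1.54 to 2.20). Of its 105 control and 282 ACD UMIs there, 21.9% and 37.9% came from 2 cells. Apod was held by 25.1% of control and 25.7% of ACD keratinocyte-like cells. After thinning the shares were 6.21% (3.14 to 10.8) and 9.68% (5.10 to 16.3), with overlapping intervals, so the higher level was not clearly seen in the shares of cells.

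Other genes of the same pathways were examined in dFB-like cells in 6 lists, beside a median log2 ratio of -0.04 over all genes, of which 3.59% were 2-fold or more higher and 1.17% lower. Of 13 genes for fatty acid uptake and for partners of lipoprotein lipase 11 were counted, 2 were 2-fold or more higher and 0 lower, with a median of -0.05. Angptl4, a secreted inhibitor of the lipase, was at 35.4 UMIs per 1000000 in control and 121 in ACD, a ratio of 1.77 (1.65 to 1.89), and Fabp3, a fatty acid carrier of muscle, at 1.54 and 3.09. Acsl3, a fatty acyl-CoA ligase, was at 21.4 and 12.6. The lipase transcript was thus level in the class in which its inhibitor was higher.

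Of 14 measured adipogenic transcription factors other than the members, 11 were counted, 1 was lower and 0 higher, with a median of -0.16. Klf15 was the one called, at 7.91 and 3.65, a log2 ratio of -1.12 (-1.58 to -0.67), while Nr1h3, the liver X receptor α, was at 3.90 and 6.73. Of 17 mature adipocyte genes 8 were counted and 0 were past 2-fold, with a median of -0.22. Adipoq, the adipokine that defines mature fat cells, had 2 UMIs in control and 0 in ACD dFB-like cells. Lep and Retn had 0 in both, so Adipoq, Lep and Retn were at or near 0 in the class. This did not hold for all mature adipocyte genes, since Plin4 had 220 UMIs in control and 88 in ACD.

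Of 8 lipid droplet genes 7 were counted and 0 were past 2-fold, with a median of 0.02 (G0s2, an inhibitor of the droplet lipase, at 82.2 and 136). Of 18 apolipoprotein and cholesterol genes 17 were counted and 0 were past 2-fold, with a median of -0.00. Ch25h, cholesterol 25-hydroxylase, was at 7.48 and 14.3, a ratio of 0.94 (0.64 to 1.23), and Abca1, the cholesterol exporter, at 138 and 97.7, a ratio of -0.50 (-0.59 to -0.41). The 12 markers of adipocyte progenitors and preadipocytes were all counted and 0 were past 2-fold, with a median of -0.23. Ly6a was at 1937 and 3332 and Dpp4, a progenitor surface peptidase, at 41.5 and 26.0, so Dlk1 stood apart in size from these other precursor markers.

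Likeness to other genes was measured as the Pearson correlation of log levels over 49 class sums of 26 classes and clusters, which share libraries and free RNA. Lpl was most like Pla2r1 (0.745) and Cxcl12 (0.737), Apod most like Gsn (0.849) and Dcn (0.844), and Cd36 most like Mrc1 (0.905) and Pf4 (0.895). Cebpb was most like Nfkbiz (0.824), Pparg most like Galnt18 (0.760) and Dlk1 most like Pcdh19 (0.805). Among the members, the closest pairs were Cebpa with Plin2 (0.653), Cebpa with Cebpb (0.629), Lpl with Dlk1 (0.610) and Pparg with Fabp4 (0.594).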

How the data were processed

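Ear skin was digested with collagenase D and DNase1 and libraries were made with the 10x 3′ v2 chemistry. The deposited UMI counts per gene and barcode were made by the authors with Cell Ranger 3.1.0, per the submitters' processing notes, on mouse build mm10, whose assembly is GRCm38. They are raw counts, not normalized and not corrected for free RNA. Median depths of 6850 and 7447 UMIs per kept cell set the precision.

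A barcode was kept if its gene number lay above 200 and below 5000, its total did not exceed 25000 UMIs and mitochondrial genes gave less than 8% of it. Of the barcodes, 50 occurred in both libraries, and 47 after the filter. Both libraries were clustered together (scanpy 1.11.5, leidenalg 0.10.2) on 2000 variable genes without the 10 members and the gate genes, with 30 components, 20 neighbours and resolution 1. A cluster took the class with the highest mean log2 marker fold if at least 3 of its markers were found in 10% or more of its cells. That mean had to be above 0, and above 1 where no marker of the class was among the 10 leading genes, and markers of another class could not outnumber its own there. These thresholds and the muscle fibre and erythrocyte lists that block a name were set after the clusters were seen. Doublets were not removed. Of 144 listed markers, 2 were absent from the files. The members, markers and lists were chosen with earlier results of these data known.

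Counts were summed per class and library. Levels have exact Poisson intervals, ratios exact conditional binomial intervals and shares exact Clopper-Pearson intervals, all at 95% and for counting error only. Named genes were the 10 members, the 2 highest and 2 lowest counted genes of each list, and the genes most like each member, some of which are not reported here. Other genes named, such as Adipoq, Lep and Retn, were chosen after their values were seen. The scripts were tested on simulated data. Alternatives changed the cell filter, clustering, class rule, gates, minimum count, scaling and depth.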

Additional observations from a re-analysis of the deposited data

Results flagged for a closer look

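Among the 8 cell classes compared in detail, the counting interval of the log2 ratio of ACD over control lay above 0 in one class and below 0 in another for 4 members. Each ratio rests on 1 library of each group. The difference between the classes was not tested, since there was 1 library per group. Lpl, the lipoprotein lipase gene, had a ratio of 0.39 (0.29 to 0.50) in Cyp2f2-gated dFB-like cells and -1.52 (-2.03 to -1.02) in glia-like cells, where the level rested on few cells. With every cell thinned to 2000 UMIs the Lpl ratio in the Cyp2f2 gate was -0.15. Apod, a lipid carrier gene, had 1.11 (1.07 to 1.14) in Cyp2f2-gated dFB-like cells and -0.55 (-1.04 to -0.03) in macrophage-like cells. In the latter, 70.8% of 48 control UMIs came from 2 cells. That ratio kept its sign in 10 of 12 alternatives but was 1.75 with classes taken from gates on marker UMIs. Fabp4, the fatty acid carrier gene, had 0.81 (0.70 to 0.92) in endothelial-like cells, with the opposite sign in both of their subsets and 0.06 without cells holding markers of a second class. It had -2.01 (-3.70 to -0.68) in Gdf10+C7-gated dFB-like cells, where 88.9% of 45 control UMIs came from 2 cells and the ratio was -0.04 at 2000 UMIs per cell. Cebpb, encoding a transcription factor, had 0.49 (0.19 to 0.80) in macrophage-like and -0.42 (-0.53 to -0.31) in endothelial-like cells. With every cell thinned to 2000 UMIs its macrophage-like ratio was -0.04.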

How the results depend on the processing

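Of the 12 member ratios past 2-fold, 167 recomputed values all kept their sign and 155 stayed past 2-fold. Dlk1 and Apoe in dFB-like cells stayed past 2-fold under all 13 alternatives, from -2.20 to -1.77 and from -1.21 to -1.08. The number of members past 2-fold differed in 32 of 122 recomputed counts, and by more than 1.5 times in 23, which are given next. In the Pi16 gate it was 1 with classes from marker gates and 1 with a lead of at least 2 UMIs, and in the Gdf10+C7 gate 1 with that lead. In the Cyp2f2 gate it was 1 with all barcodes, the stricter cell filter, resolution 0.5, thinning to 2000 UMIs, a lead of at least 2 UMIs, or without cluster 14. In chondrocyte-like cells it was 1 with the stricter filter, 3 with each library clustered on its own and 1 with the lymphocyte level subtracted. In endothelial-like cells it was 3 with all barcodes and 4 with at least 20 UMIs or no minimum. In glia-like cells it was 0 with marker gates, without cells holding markers of a second class or with thinning, 3 with no minimum and 2 with the lymphocyte level subtracted. In macrophage-like cells it was 2 with at least 20 UMIs, no minimum or the lymphocyte level subtracted. Fabp4 in endothelial-like cells went from 0.81 to 0.06 without cells holding markers of a second class. The cause was not tested. Leaving out cluster 14, a cluster with 8 control cells, and subtracting the lymphocyte level were chosen after seeing the data. No paired analysis was possible because there was 1 library per group and the labels carry no replicate numbers, and for the same reason no replicate could be left out. Depth limits Cd36, Fabp4 and Pparg most, each with few UMIs in dFB-like cells.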
